A study of Drosophila melanogaster with 18 samples.

Results

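Puparium formation is the first step of metamorphosis in Drosophila melanogaster, and the arrays described here compare animals at that step with larvae shortly before it. The comparison set 3 arrays of control prepupae at 0 h, the time of puparium formation, against 3 arrays of control larvae of the third instar collected at -4 h, and the members are those 6 arrays of the 18 in the series, chosen by their labels. Control animals were of the w1118 strain, each sample was RNA from 10 whole animals, and the larvae were picked as wandering animals whose guts had cleared of food stained with 0.05% bromophenol blue. The 12 arrays outside the comparison were 3 of controls at 4 h and 9 of EcRi animals at -4, 0 and 4 h. EcRi animals carry hs-EcRi-11, a transgene under a heat-shock promoter whose double-stranded RNA targets EcR, the gene of the ecdysone receptor, and they were kept at 37 °C for 1 h at 24 and again at 18 h before pupariation. The sources used here do not say whether the controls were heated, so strain and heat treatment cannot be told apart where EcRi animals are set beside controls. These 12 arrays entered the estimate of the spread for each probe set. Each array of a group came from an experiment performed separately.

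The steroid hormone 20-hydroxyecdysone (20E) peaks at the end of larval life and binds a heterodimer of the nuclear receptors EcR and Ultraspiracle (usp). The receptor switches on a small set of early genes, mostly transcription factors, which in turn drive larger sets of late genes in each tissue. In the larval salivary gland this order is seen as the end of glue gene expression and the start of the L71 late genes, while the larval midgut begins to be replaced and the larval cuticle is tanned into the puparium.

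Control -4 h replicate 1 stood apart from the other arrays. Its closest match among all 18 arrays had a Pearson correlation of 0.939 over the log2 values, whereas the closest match of each of the other 5 compared arrays was 0.992 or 0.993. On that array 839 probe sets were over 2-fold above the mean of the other control -4 h arrays and 267 were over 2-fold below it, while replicates 2 and 3 differed by over 2-fold at 12 probe sets. Of the 839, 532 were probe sets dimmer than the median. Over the 350 probe sets called without it, this array lay a median of 14% of the way from the larval to the prepupal mean. When replicates 2 and 3 were left out in turn, the values were 13.6% and 3.55%. Those were scored on 410 and 444 called probe sets and against a larval mean that held replicate 1, so the 3 positions cannot be compared directly. Counts are therefore given with and without this array. Among the EcRi arrays, 0 h replicate 1 stood apart in the same manner, with a closest match of 0.933, and it enters the spread.

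**Figure D1:**
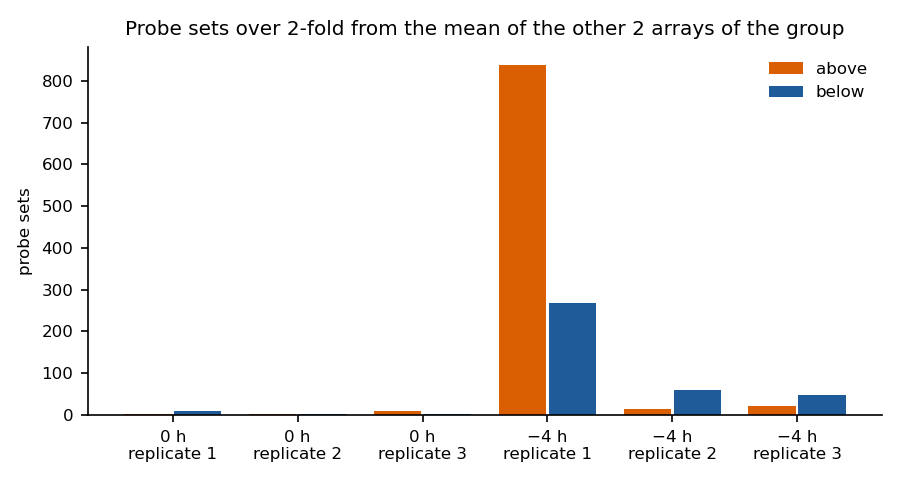
Number of probe sets (vertical axis) at which each control array lay over 2-fold above (orange) or below (blue) the mean of the other 2 arrays of its group. Control -4 h replicate 1 has 839 above and 267 below, and no other array has more than 22 above or 59 below.

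Between -4 and 0 h, 434 of 13966 probe sets (3.11%) were called, which here means a Benjamini-Hochberg adjusted p under 0.10 in a limma fit and a change of at least 1.5-fold. Of these, 201 (1.44%) were higher at 0 h and 233 (1.67%) were lower. The median call was 1.93-fold in either direction, and the most extreme probe sets were 12.3-fold higher (Eig71Ea) and 8.47-fold lower (Sgs1). Without control -4 h replicate 1 the fit called 350 probe sets (2.51%), 129 higher (0.924%) and 221 lower (1.58%). Both fits called 316 (2.26%), 121 higher (0.866%) and 195 lower (1.4%). The number called higher moved by more than 1.5 times with single arrays: it was 98 without control 0 h replicate 1, 130 without control 0 h replicate 2 and 417 without EcRi 0 h replicate 1, whereas the number called lower stayed between 172 and 314. Because RNA came from whole animals, fewer cells of a type and less RNA per cell cannot be told apart in any of these values.

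**Figure D2:**
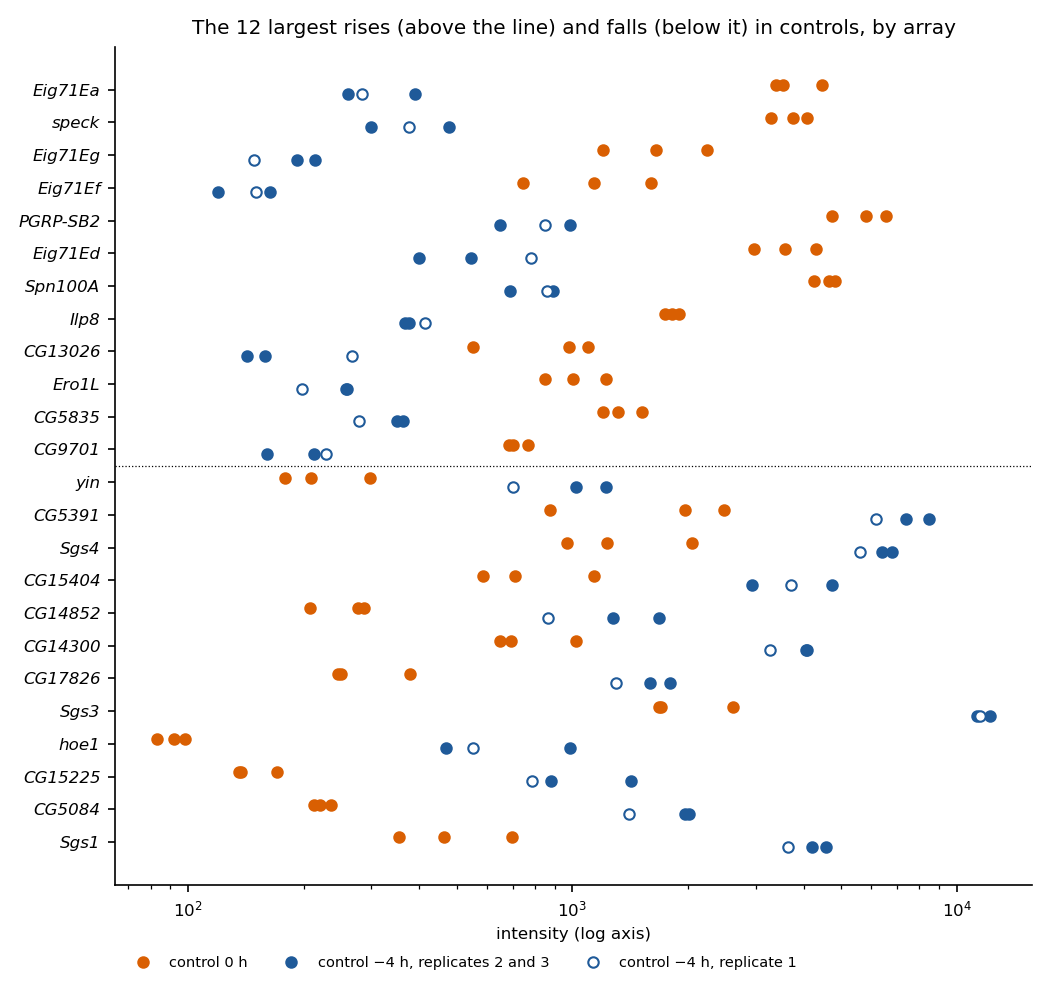
Intensity on each array (horizontal log axis) of the 12 genes with the largest rises called in both fits, above the dotted line, and the 12 with the largest such falls, below it, at control 0 h (orange) and control -4 h (blue, with replicate 1 open). The 24 genes were chosen to have the 3 prepupal arrays wholly to one side of the 3 larval arrays, so that separation is not a result. Replicate 1 lies within or beside its group.

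The receptor genes differed by probe set in size and in call. Of the EcR probe sets the brighter had intensities of 478, 448 and 485 at 0 h, against 533, 521 and 547 at -4 h, a log2 change of -0.18 ± 0.09 (SE) with an adjusted p of 0.37. The dimmer had 152, 204 and 184 at 0 h, against 251, 303 and 324 at -4 h, and was called lower by 1.63-fold (adjusted p = 0.0095). Both EcR probe sets had the same sign. Its partner usp had 195, 172 and 108 at 0 h and 73.2, 90.2 and 108 at -4 h, groups that met at 108, with a log2 change of 0.67 ± 0.22 that was not called (adjusted p = 0.15).

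Of 16 nuclear receptor genes measured, 1 was called higher and 0 lower, beside 1.44% called higher and 1.92% called lower (3.36% in all) among 10844 genes, each taken by its brightest probe set. Without control -4 h replicate 1 these shares were 0.968% and 1.84%. Without EcRi 0 h replicate 1, 327 of the 10844 genes were called higher and 279 lower, the background for list counts given in that fit. The called gene was Hr3, which encodes an orphan receptor induced by 20E. Hr3 had 408, 378 and 267 at 0 h, against 167, 162 and 106 at -4 h, so that the groups did not overlap, with a log2 change of 1.28 ± 0.32 and an adjusted p of 0.043. That call was lost without control 0 h replicate 1 (adjusted p = 0.19), without control 0 h replicate 2 (0.16) and without control -4 h replicate 3 (0.13), in a range of 0.01 to 0.19 over all other settings, and a dimmer Hr3 probe set gave a log2 change of 0.42. ftz-f1, the competence factor of the mid-prepupal stage, lay under the floor of 91.6 on all 6 arrays. Eip75B had no probe set with a single gene symbol and was not counted.

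Few of the early regulators that could be measured were called. The list lacks Eip74EF, Eip75B, Eip63F-1, crol and pnt, which had no probe set with a single gene symbol here. Of the 22 measured, 2 (Hr3 again, and Blimp-1) were called higher and 0 lower, with a median log2 change of 0.11 beside 0 for all genes, and the counts were 1 higher and 1 lower without control -4 h replicate 1 and 4 higher and 0 lower without EcRi 0 h replicate 1. Blimp-1, a zinc finger repressor, had 733, 779 and 595 at 0 h and 365, 454 and 412 at -4 h. The Blimp-1 arrays did not overlap (adjusted p = 0.0505), yet the call was lost without control -4 h replicate 1 (0.20) or 3 (0.10) and without control 0 h replicate 1 (0.19) or 2 (0.20), in a range of 0.0021 to 0.20 over all other settings. The basic helix-loop-helix repressor hry had 2324, 1653 and 2072 at 0 h and 734, 1049 and 1095 at -4 h, a wider gap in size (log2 1.08 ± 0.34) that was not called at an adjusted p of 0.13. Sox14, a high-mobility-group factor, was level at 1692, 1721 and 1739.6 at 0 h and 1762, 1869 and 1752 at -4 h. The zinc finger factor cbt had 507, 585 and 445 at 0 h and 426, 885 and 1099.8 at -4 h, where replicate 1 was the low array, and was called lower without it (log2 -0.95, adjusted p = 0.083; 0.00089 to 0.72 over the other settings). At Eip93F the same array was the high one: 285, 307 and 265 at 0 h, against 850.4, 266 and 248 at -4 h. The broad gene, br, had 3 probe sets, of which the brightest changed by -0.04 on the log2 scale and the dimmest, with a mean of 189 at 0 h and 288 at -4 h, was called lower (log2 -0.62, adjusted p = 0.075). Of the 7 regulators that the study chose on these samples, Blimp-1 alone was called higher and none lower, a list that is not independent evidence of its own direction.

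Genes for making, moving and clearing ecdysteroids gave 0 calls of 18, or 1 higher without EcRi 0 h replicate 1. The sterol-binding gene Npc2a, needed for cholesterol transport, had 3427, 3597 and 3631 at 0 h, against 2563, 2271 and 2412 at -4 h, with an adjusted p of 0.076 but a change of 1.47-fold, under the limit. Among 8 juvenile hormone genes 1 was called higher and 0 lower. That gene was JhI-21, an amino acid transporter first found as inducible by juvenile hormone, with 883, 769.7 and 563 at 0 h against 404, 243 and 242 at -4 h (log2 1.34 ± 0.25, adjusted p = 0.0085).

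The smallest adjusted p of the comparison belonged to Ilp8, a secreted relaxin-like peptide that imaginal discs use to delay pupariation and that also acts at pupariation itself. Ilp8 had 1894, 1813 and 1744 at 0 h, against 413, 367 and 377 at -4 h, a 4.71-fold rise with a standard error of 0.05 on a log2 change of 2.24 (adjusted p = 6.2e-11). It was the one call among 11 moulting neuropeptides and receptors. At 4 h it was down again, with 317, 322 and 320.2. In EcRi animals Ilp8 had 304, 300.0 and 281 at 0 h and 329, 324 and 294 at -4 h, and the difference between the control and the EcRi change was 2.33 on the log2 scale (adjusted p = 2.8e-09).

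Glue genes of the salivary gland fell together. They encode the secreted mucins and small proteins that stick the puparium to a surface. Of 10 glue and intermoult genes measured, 0 were called higher and 7 lower with all arrays, and again 0 and 7 without control -4 h replicate 1, with a median log2 change of -1.36. Sgs1 had 355, 696 and 465 at 0 h, against 3638, 4559 and 4211 at -4 h (log2 -3.08 ± 0.22, adjusted p = 2.9e-06). Sgs3 had 1705, 2624 and 1682 at 0 h, against 11470.3, 11319.8 and 12235 at -4 h, a 5.95-fold fall, and replicate 2 was the highest prepupal array for both genes. Sgs4 was 4.64-fold lower and Sgs5 3.30-fold lower. The 2 brightest members had the smallest called changes: Sgs8 was 1.99-fold lower, and Sgs7 was 1.68-fold lower with 9411, 13394 and 10357 at 0 h against 18618, 18236 and 18118 at -4 h, near the highest value on any of the arrays, 20235. Sgs5bis, 3.39-fold lower, lost its call without control 0 h replicate 1 (adjusted p = 0.11, and 0.0026 to 0.23 over the other settings). The intermoult genes ng3, ng4 and Pig1 were not called. Of these ng3 had 135, 122 and 137 at 0 h and 217, 228 and 283 at -4 h, ranges that did not overlap, at an adjusted p of 0.13. At 4 h the glue genes were lower still: Sgs3 had 346, 334 and 336 at 4 h and Sgs4 117, 142 and 149.

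The L71 genes are late-puff genes that encode small secreted peptides, and the list used here took the Eig71E genes by name. The listed genes moved in both directions. Of 9 measured, 4 were called higher and 1 lower, in both fits, around a median of 0.42. Eig71Ea had 4465, 3535 and 3381 at 0 h, against 284, 389 and 260.2 at -4 h (log2 3.62 ± 0.23, adjusted p = 1.1e-06). Eig71Eg was 8.97-fold higher and Eig71Ef 7.73-fold higher. Eig71Ed, with 4303, 3571 and 2975 at 0 h against 780.3, 544 and 399 at -4 h, was 6.46-fold higher. In each of these 4 genes replicate 1 was the highest of the prepupal arrays and the 4 h arrays were higher than all of them, up to 11072 for Eig71Ed. Eig71Ee ran the other way, and whether it belongs with the late-puff genes was not tested. It had 2477, 3550.5 and 3374 at 0 h, against 8461, 9481 and 9560.3 at -4 h, a 2.96-fold fall (adjusted p = 9.6e-06), and 706, 750.2 and 742 at 4 h, a course like that of the glue genes. Eig71Ei had 188, 105 and 94.1 at 0 h, all above its 3 larval values of 54.3, 43.2 and 53.5, which lay under the floor, and was not called (adjusted p = 0.30), but it reached 888, 703 and 784 at 4 h.

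**Figure D3:**
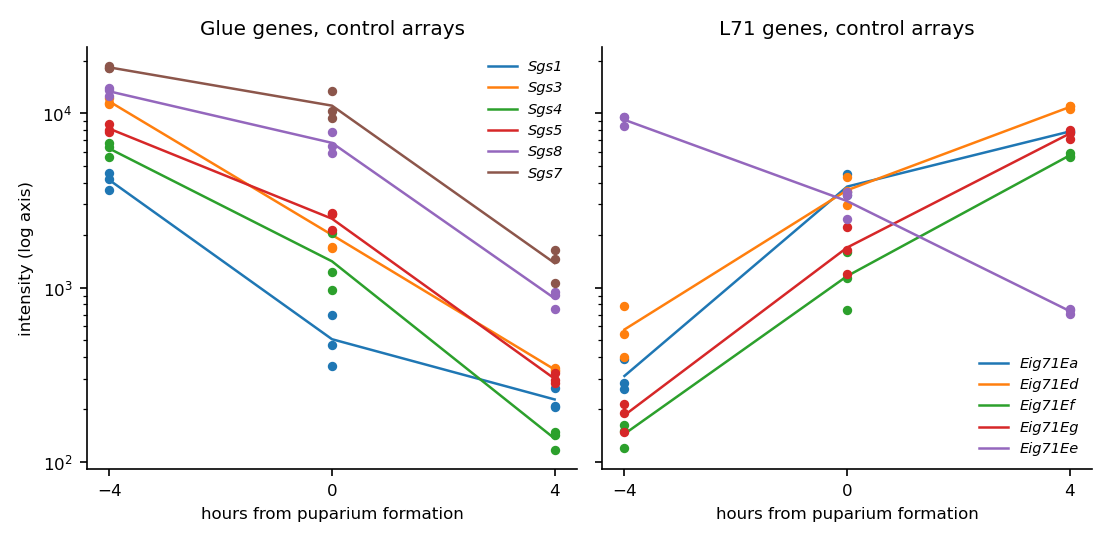
Intensity (vertical log axis) of 6 glue genes (left) and 5 genes of the L71 list (right) on each control array at -4, 0 and 4 h, with lines through the group means. Glue levels are lower at each later time, 4 genes of the L71 list are higher at each later time, and Eig71Ee is lower, at 742 on one of the 4 h arrays.

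Digestive genes of the larval midgut were lower at 0 h. All 14 Jonah genes, which encode serine proteases of the gut, had a negative change, 7 of them called lower and 0 higher with all arrays and 11 lower without control -4 h replicate 1, where the median was -1.11 in place of -0.96. Jon66Ci had 1218, 2084 and 1825 at 0 h, against 5675, 7691 and 8035 at -4 h (log2 -2.08 ± 0.23, adjusted p = 0.00015). Jon25Bi was 2.69-fold lower, with 1598, 2121 and 1802 at 0 h against 4381, 4873 and 5595 at -4 h. Replicate 1 was the lowest larval array at both genes. Of 12 trypsins and related proteases 4 were called lower and 0 higher with all arrays, 5 lower without control -4 h replicate 1 and 7 lower without EcRi 0 h replicate 1, led by yip7 at 4002, 4167 and 3534 at 0 h against 7619, 9593 and 7978 at -4 h (2.15-fold). All 13 carbohydrases had a negative change too, with a median of -0.29, or -0.14 without control -4 h replicate 1, and the single call, the maltase Mal-A1 (log2 -0.74), was lost without that array because its change of -0.56 was then under the fold limit. The gut lipase magro (mag) had 283, 435 and 372 at 0 h, against 848, 902 and 1677 at -4 h (3.04-fold lower, adjusted p = 0.012).

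Lysozymes, which in the larva are secreted into the gut to digest bacteria, fell as a block. Of 7 measured, 6 were called lower and 0 higher in both fits, with medians of -1.54 and -1.70. LysC had 1788, 2409 and 1800.0 at 0 h, against 5264, 7104 and 10789 at -4 h (log2 -1.90 ± 0.23, adjusted p = 0.00029). LysE and LysD were 3.37-fold and 3.26-fold lower. The larval arrays spread widely here, with replicate 1 lowest and replicate 3 highest at each of these genes, but all prepupal arrays lay below all larval ones. LysB, LysC, LysD and LysE were read by probe sets whose names mark them as shared within a gene family, so their values cannot be taken as separate measurements. LysX was the exception, with 804 ± 137 at 0 h and 524 ± 132 at -4 h (SD, n = 3 each) and an adjusted p of 0.38.

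The list of mucins and genes of the peritrophic matrix, the chitinous sleeve that lines the midgut, held calls in both directions. Of 35 measured, 6 were called lower and 2 higher, or 5 lower and 2 higher without control -4 h replicate 1. Among the lower ones, Muc26B had 621, 806 and 589 at 0 h, against 1478, 2081 and 1931 at -4 h, and Muc55B had 1097, 857 and 696 at 0 h, against 3656, 3206 and 1573 at -4 h. The 2 that rose belong to the list by name but are known from cuticle. Cht5, a chitinase, had 2396, 2063 and 1739 at 0 h, against 721, 721 and 791 at -4 h (log2 1.46 ± 0.29, adjusted p = 0.013), and obst-A, which organises the chitin matrix of the larval cuticle, was 3.35-fold higher on its brighter probe set and was called on the dimmer as well (log2 1.48). At 4 h Cht5 had 5930.4, 5414 and 5665 and obst-A 6868, 6777 and 6725, above all prepupal arrays at 0 h.

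**Figure D4:**
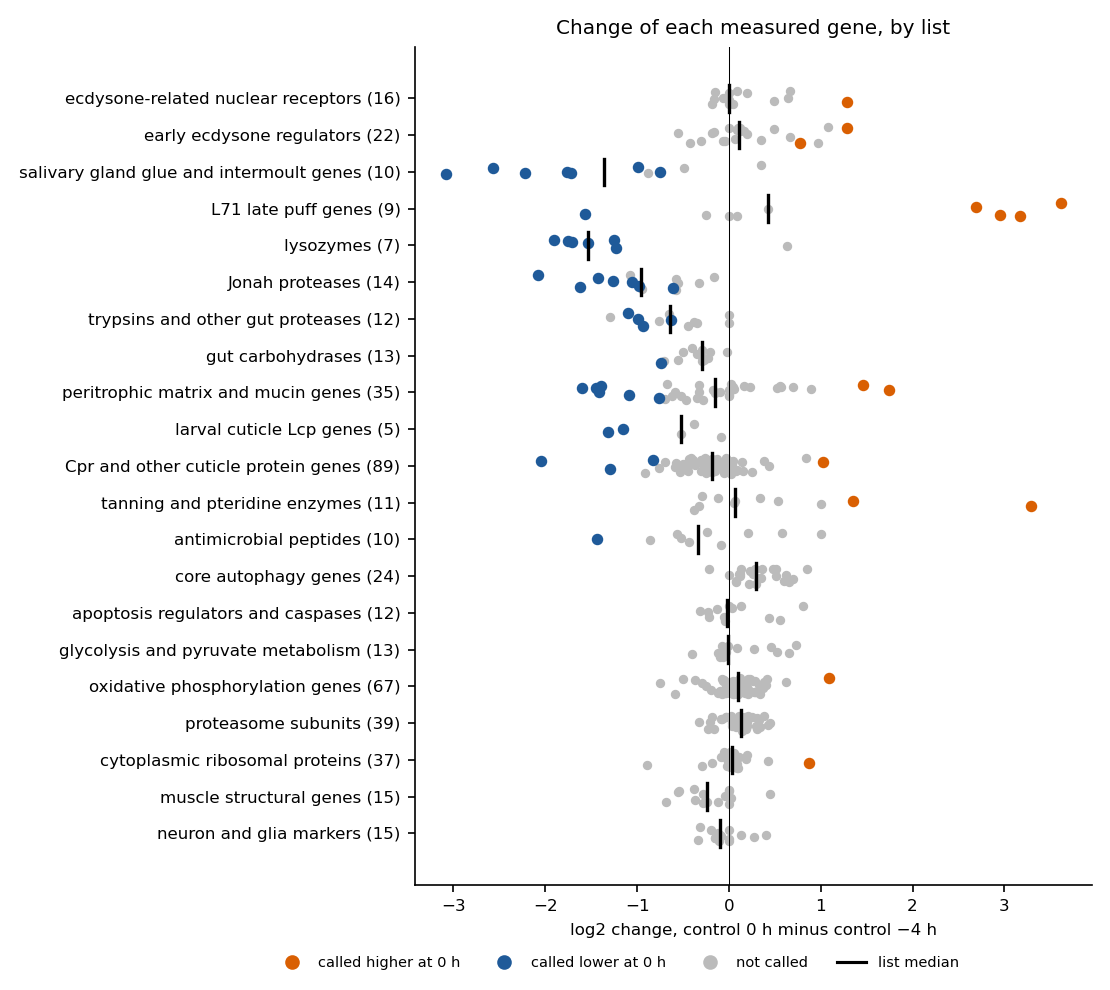
Log2 change (control 0 h minus -4 h, horizontal axis) of every measured gene in 21 of the gene lists, with the number measured in parentheses; orange and blue mark genes called higher and lower, and black bars are list medians. Glue genes and lysozymes have medians of -1.36 and -1.54, genes of the L71 list, taken by name, fall on both sides, and autophagy, proteasome, muscle and neuron lists hold no called gene.

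Cuticle protein genes mostly had negative changes, few of them called. Of 89 Cpr and related genes, 73 had a change below 0 and 13 above it, beside 5389 below and 4306 above among all 10844 genes, and in 31 all prepupal arrays lay below all larval ones, against 4 wholly above, beside 1728 and 1577 of all genes. Their median was -0.19, or -0.07 without control -4 h replicate 1. Among them 1 was called higher and 3 lower with all arrays, against 1 and 4 without control -4 h replicate 1, and 2 and 5 when EcRi 0 h replicate 1 was dropped. Cpr67B had 328, 470.0 and 382 at 0 h, against 1392, 1594 and 1849 at -4 h (4.12-fold lower, adjusted p = 2.0e-06), and the pupal cuticle protein gene Pcp was 2.46-fold lower. Cpr78E was 1.77-fold lower with 3169, 3194 and 2627 at 0 h against 4321, 5377 and 6375 at -4 h, yet stood at 11141, 10490.4 and 10968 at 4 h, so its lowest level of the 3 times was at puparium formation. Cpr47Ee was the one that rose, with 372, 386 and 329.5 at 0 h against 204, 183 and 149 at -4 h. All 5 larval cuticle Lcp genes measured had a negative change, with a median of -0.52, or -0.16 without control -4 h replicate 1. Of these 2 were called lower in both fits, and the larger, Lcp9, had 167, 195 and 155 at 0 h against 503, 285 and 553 at -4 h. Other members, among them Lcp1, Lcp2, Lcp3 and Lcp4, had no probe set with a single gene symbol. The zona pellucida domain gene zye fell 2.66-fold and yellow-e, of the yellow family, 3.06-fold. None of the 24 Osiris genes was called.

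Tanning enzymes included the second largest of the 12 rises. speck, which encodes the N-acetyltransferase that acylates dopamine, had 4079, 3759 and 3284 at 0 h, against 375, 478 and 299 at -4 h (log2 3.29 ± 0.26, adjusted p = 7.6e-06), and 1546, 1430.3 and 1162 at 4 h. Of 11 tanning and pteridine enzymes 2 were called higher and 0 lower, in both fits. The other was ebony (e), which joins dopamine to beta-alanine, with 7080.1, 6969 and 7126 at 0 h against 3491, 3295 and 1845 at -4 h. Its arrays did not overlap, but the adjusted p was 0.062 and the call was lost without any one of the 3 prepupal arrays (0.14 to 0.19) and without control -4 h replicate 3 (0.16), in a range of 0.014 to 0.19 over all other settings. Tyrosine hydroxylase, ple, averaged 8344 ± 993 at 0 h and 4191 ± 772 at -4 h (SD, n = 3 each) and was not called (adjusted p = 0.12), and dopa decarboxylase, Ddc, had a log2 change of -0.12.

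Immune genes moved singly. PGRP-SB2, an amidase that cleaves peptidoglycan, had 6564, 5808 and 4728 at 0 h, against 851, 984 and 649.9 at -4 h, a 6.92-fold rise (adjusted p = 2.5e-07), with 7282, 6964 and 6501 at 4 h. PGRP-SC2, another amidase, was 2.08-fold lower, a call that was lost without control 0 h replicate 1 (adjusted p = 0.15), control 0 h replicate 3 (0.11) or control -4 h replicate 3 (0.11), in a range of 0.00025 to 0.15 over the other settings. Of 10 antimicrobial peptide genes 1 was called lower and 0 higher: metchnikowin (Mtk) had 594, 669.8 and 698 at 0 h, against 1667, 1591 and 2059 at -4 h. Without control -4 h replicate 1, 2 were called lower and 0 higher, and the list median was -0.006 in place of -0.33. Without EcRi 0 h replicate 1, 2 were called lower and 1 higher. Among 19 Toll and Imd pathway genes, imd alone was called, higher by 0.60 on the log2 scale, and was under the fold limit without control -4 h replicate 1, while 3 were called higher and 1 lower without EcRi 0 h replicate 1. The serpin Spn100A, a member of a family of protease inhibitors, had 4814, 4645 and 4246 at 0 h, against 858, 889.8 and 689 at -4 h (5.65-fold, adjusted p = 1.9e-05), and was the one call among 26 serpins.

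Other genes among the 12 largest rises were Ero1L, an oxidase of the endoplasmic reticulum that makes disulphide bonds, with 1223, 1007 and 847 at 0 h against 198, 260.0 and 258 at -4 h, and the genes CG13026, CG5835 and CG9701, which were 4.6-fold, 4.08-fold and 3.61-fold higher. At 4 h Ero1L was at 415, 397 and 338 and CG9701 at 211, 234 and 234, below all prepupal arrays at 0 h. The largest falls outside the glue list were those of CG5084, with 236, 221 and 213 at 0 h against 1402, 2013 and 1962 at -4 h (7.94-fold, adjusted p = 4.5e-08), and of CG15225 and hoe1, both 6.76-fold lower. Further probe sets of hoe1, a relative of the mammalian pink-eyed dilution gene, had log2 changes of -0.22 and -0.35, against -2.76 for the one called. CG17826, CG14300, CG14852, CG15404, CG5391 and the oligopeptide transporter gene yin were between 5.44-fold and 4.29-fold lower. Among them CG5391 spread most at 0 h, with 875, 2487 and 1961 against 6182, 7399 and 8451 at -4 h.

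Housekeeping and metabolic lists showed few calls, beside 1.44% called higher and 1.92% called lower among all 10844 genes. They were not tested against those shares. Oxidative phosphorylation genes had 1 of 67 called higher (ATPsynCF6L, 2.14-fold) and cytoplasmic ribosomal protein genes 1 of 37 (RpL7-like, 1.83-fold). P450 genes had 1 higher and 1 lower of 81. None was called among 13 glycolysis, 13 trehalose, 39 proteasome, 64 mitochondrial ribosomal, 34 glutathione S-transferase, 38 lysosomal and 16 cell cycle genes. Yet in 18 of the 39 proteasome genes all prepupal arrays lay above all larval ones, and in 2 wholly below, beside 1577 and 1728 of all genes. Without EcRi 0 h replicate 1, 1 trehalose and 1 mitochondrial ribosomal gene were called higher. Core autophagy genes were above 0 in 22 of 24 cases with a median of 0.29, which was 0.14 without control -4 h replicate 1, an array on which the same genes had a median of 0.32 below its group, and none was called on its brightest probe set, or 2 higher without EcRi 0 h replicate 1. A dimmer probe set of Atg13, a subunit of the kinase complex that starts autophagy, was called (log2 0.74, adjusted p = 0.025), while the brighter had 852, 735 and 716 at 0 h and 320.3, 455 and 519.8 at -4 h and an adjusted p of 0.30. None of 12 apoptosis genes was called, or 1 higher without EcRi 0 h replicate 1. The matrix protease gene Mmp2 was 1.54-fold higher and lost its call without control 0 h replicate 1 (adjusted p = 0.10, and 0.00022 to 0.10 over the other settings).

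Markers of other tissues were present and gave no calls with all arrays, while without EcRi 0 h replicate 1 a single tracheal marker was called higher and a single muscle gene lower. Of 15 muscle genes 3 lay at the floor on all 6 arrays, as did 3 of 15 neuron and glia genes, 1 of 13 imaginal disc genes, 1 of 15 haemocyte genes, 2 of 15 male germ line genes and none of 7 fat body, 6 Malpighian tubule and 5 tracheal genes. The summed intensity of the fat body list was 53947 to 55647 at 0 h and 50359 to 51292 at -4 h, and that of the muscle list 13575 to 14711 at 0 h and 14784 to 18158 at -4 h, ranges that did not overlap in either list. Tracheal markers summed to 4132 to 4988 at 0 h and 3299 to 3965 at -4 h, and haemocyte genes to 5089 to 5537 at 0 h and 5658 to 6450.1 at -4 h, also without overlap. The sums of the neuron and glia, disc, Malpighian tubule and male germ line lists did overlap, and the part of these lists in the other results was not tested. By comparison the glue list summed to 22416 to 32703 at 0 h and 66113 to 71813 at -4 h. Among the disc genes dac had 1280.0 on control -4 h replicate 1 and 329 to 399 on the other 5 compared arrays.

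The study followed 3 genes, beside an E74A control, by Northern blots of w1118 and EcRi animals at -4, 0 and 4 h. It reported normal induction of all 3 at puparium formation in both. On the arrays none of the 3 was called higher at 0 h than at -4 h, and CG13856 was lower. The blots also covered 4 h, so this step is a part of the course they show. Pepck1, the gluconeogenic enzyme, had 4255, 3322 and 2960.0 at 0 h, all above 2134, 2911 and 2251 at -4 h, without a call (adjusted p = 0.15). CG5065 had a log2 change of 0.20 ± 0.23. The sources name this probe both CG5065 and CG5056, and CG5056 had a log2 change of 0.37 (adjusted p = 0.0073), under the fold limit. CG13856 had 135, 148 and 126 at 0 h, against 221, 183 and 272 at -4 h, and was called lower at 1.64-fold (adjusted p = 0.029, and 0.0045 to 0.43 over the other settings), with the call lost without control 0 h replicate 1 (0.11) or 3 (0.10) and without control -4 h replicate 3, where the change was under the fold limit. At 4 h Pepck1 had 7778, 7333 and 7479.9, CG5065 538, 589.9 and 579.5 and CG13856 437, 425 and 391. For Pepck1 and CG13856 these lay above all their values at -4 and 0 h.

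Over the same 4 h the EcRi change was measured on other arrays than the control change, although both take their spread from one fit to all 18 arrays. No probe set was called between EcRi 0 h and EcRi -4 h by limma, with 604 at an unadjusted p under 0.05, and leaving out EcRi 0 h replicate 1 gave 299 such probe sets and again 0 calls, while array weights, which count that array little, gave 85 calls. The 201 probe sets called higher in controls had a median log2 change of 0.95 there, by their choice, and of -0.00041 in EcRi animals, where 96 of 201 had the same sign and 9 reached 1.5-fold. The 233 called lower had medians of -0.95 in controls and -0.06 in EcRi animals, with 150 of the same sign and 13 at 1.5-fold or more. Over all 13966 probe sets the EcRi change had a median of 0 and quartiles of -0.19 and 0.13. Signs over all probe sets were not counted. Without EcRi 0 h replicate 1 the EcRi medians were 0.13 over 417 probe sets called higher in controls, 328 of the same sign, and -0.03 over 314 called lower, 186 of the same sign. All probe sets then had EcRi quartiles of -0.04 and 0.05 around a median of 0.

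**Figure D5:**
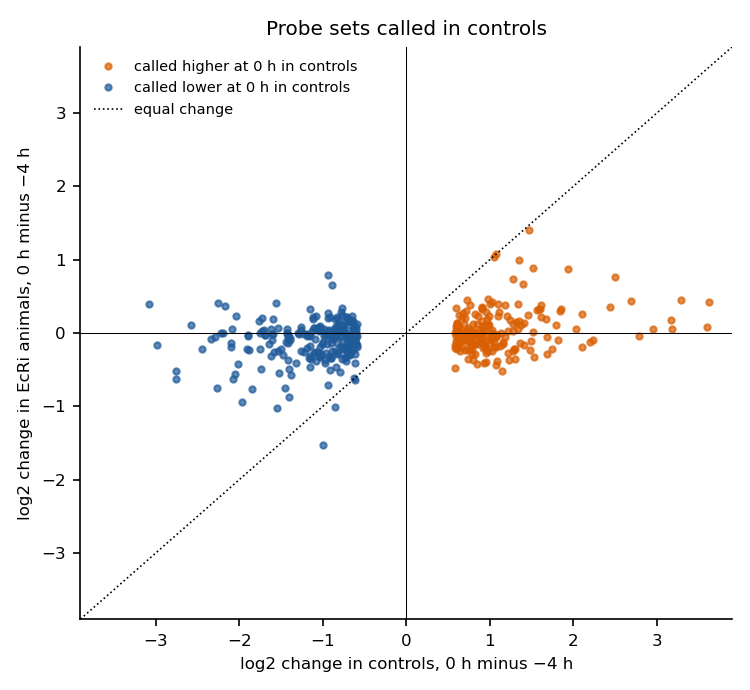
Log2 change from -4 to 0 h in EcRi animals (vertical axis) against that in controls (horizontal axis) for each of the 434 probe sets called in controls; the dotted line marks equal change. Points spread about the horizontal line at 0, with EcRi medians of -0.00041 for those called higher and -0.06 for those called lower in controls.

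Tested directly, the control change exceeded the EcRi change at 78 probe sets (0.558%) and was below it at 123 (0.881%). Among the glue genes, Sgs3 had 1705, 2624 and 1682 in controls at 0 h and 9963, 10285 and 9634 in EcRi animals at 0 h, and the 2 changes differed by -2.68 on the log2 scale (adjusted p = 5.0e-06). Eig71Ea had 94.8, 141 and 210.5 in EcRi animals at 0 h and 95.8, 111 and 110.4 at -4 h, and its changes differed by 3.2 (adjusted p = 0.00019). CG9701 and ebony were not called with all arrays: CG9701 had 401, 914 and 1005 in EcRi animals at 0 h and 516, 595 and 601 at -4 h (difference of changes 1.52, adjusted p = 0.11, but 0.043 and called without EcRi 0 h replicate 1), and ebony 746, 1106 and 853 at 0 h and 279.9, 375 and 835 at -4 h (0.35, adjusted p = 0.69). The count of 78 was 37 without control 0 h replicate 1, 46 without control 0 h replicate 2, 49 without control -4 h replicate 1, and 42, 45 and 44 without EcRi -4 h replicates 1, 2 and 3.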

How the data were processed

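The authors normalized the arrays (Affymetrix GeneChip Drosophila Genome Arrays) and computed one expression intensity per probe set with dChip 1.2, and deposited these linear intensity values. The sources used here do not give the probe-level model, background treatment or baseline array. A single gene symbol was attached to 12443 of the 13966 probe sets, more than 1 symbol to 327 and none to 1196. Arrays give no counts, and their number limits the precision.

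Values under the 20th percentile of all values (intensity 91.58) were raised to that floor and log2 was taken. Group means were estimated from the 18 arrays by limma 3.58.1 under R 4.3.3 (12 residual degrees of freedom, prior 0.588). Two-sided p-values were Benjamini-Hochberg adjusted across the whole table, and a probe set was called at an adjusted p under 0.10 and at least 1.5-fold. The tests measure the spread between separate collections of animals. Log2 changes carry the standard error of the fit. The fit was tested on simulated data. In gene lists each gene stands by its brightest probe set, and lists carry no test.

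Named genes are the 12 largest rises and 12 largest falls that were called with and without control -4 h replicate 1, had 1 symbol, did not overlap between groups and were not wholly at the floor; up to 4 such members of each list, or the 2 largest changes where none was called; any glue, L71 or early regulator gene; EcR; the 3 genes the study followed by Northern blot; and the 5 largest calls in each direction with 1 group at the floor. Other genes (Mal-A1, imd, LysX, ple, Ddc, CG5056, and the neighbouring genes in the closing section) were chosen after their values were seen. The members, lists and tests were chosen with earlier results of these data known. Other settings changed the floor, pseudocount, scaling, filter, variance model, arrays, replicate block and thresholds, or used significance analysis of microarrays (SAM, reimplemented), the method of the study.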

Additional observations from a re-analysis of the deposited data

Results flagged for a closer look

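The change from -4 to 0 h differed between controls and EcRi animals, by the test of the difference itself, at 78 probe sets where the control change was the higher and at 123 where it was the lower. The values below are control change minus EcRi change on the log2 scale, for those of the 12 largest rises and 12 largest falls in controls whose difference was called; strain and, as far as the sources go, heat treatment also differed between the animals and cannot be told apart from the transgene's target.

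Among the genes that rose in controls, the L71 genes differed by 3.2 (Eig71Ea), 2.99 (Eig71Eg), 2.89 (Eig71Ef) and 2.25 (Eig71Ed). speck differed by 2.84, PGRP-SB2 by 2.83 and its neighbour CG13026 by 2.32. Ilp8 differed by 2.33, Ero1L by 2.29, CG5835 by 1.97 and Spn100A by 1.73. Spn100A had 1199.8, 1963 and 2041 in EcRi animals at 0 h against 828, 968 and 1225 at -4 h, ranges that overlap. CG9701 is the rise of the 12 that is left out here, since its difference was called without EcRi 0 h replicate 1 (adjusted p = 0.043) but not with all arrays (0.11).

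Among the genes that fell in controls, the glue genes differed by -3.48 (Sgs1), -2.68 (Sgs3) and -2.22 (Sgs4). CG5084 differed by -2.83, CG15404 by -2.66, CG5391 by -2.54, hoe1 by -2.24, CG14300 by -2.24, CG17826 by -2.22, CG15225 by -2.13, yin by -1.97 and CG14852 by -1.52. CG14852 also had lower values in EcRi animals, with 2033, 2525 and 2021 at 0 h against 4146, 3444 and 3440.4 at -4 h. CG5391 had lower larval values in EcRi animals, with 1383, 1418 and 1457 at -4 h, than the 6182, 7399 and 8451 of the control larvae.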

How the results depend on the processing

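No named probe set of the 149 was scored as reversed under an alternative, and 40 of the 76 called kept their call and sign under all of them. That score did not follow the bare sign of changes that were not called. Eip93F, not called, was lower at 0 h with all arrays and higher without control -4 h replicate 1. The fits that cost most calls were those to the 6 compared arrays only and to the 5 left without control -4 h replicate 1 (21 calls each; the fit to 5 was chosen after seeing the data), the 2-fold limit (18) and the fit without control 0 h replicate 1 (14). The number called higher, 201, was 689 with SAM, 439 with array weights, 341 with the 9 control arrays only, 334 with no fold limit and 88 at 2-fold, and ranged from 98 to 417 with one array left out. The number called lower, 233, was 391 with no fold limit and 108 at 2-fold, and ranged from 172 to 314 with one array left out. The 78 higher and 123 lower differences between strains were 277 and 286 with array weights and 51 and 81 at 2-fold; the 78 were 47 at an adjusted p under 0.05. With one array left out these ranged from 37 to 111 and from 84 to 148. SAM compares groups and was not run for the difference between strains. The causes of these shifts were not tested.

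Whether the replicate numbers pair the samples could not be decided. Deviations from the group means of same-numbered 0 h and -4 h arrays correlated at -0.19, 0.16 and -0.30 for numbers 1, 2 and 3, and number 2 alone matched best with its own. Control -4 h replicate 1 lay far from the other larval arrays and entered the mean from which all larval deviations were taken, so these correlations are not separate checks. With the number as a replicate block there were 195 higher and 241 lower calls, and 60 and 113 differences between strains. Levels under the floor of 91.58, which held on all 6 arrays for 1753 probe sets, give no change here.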

Other observations

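Some of the called genes lie next to each other. Of 10767 genes placed in order along the chromosomes in RefSeq (protein-coding, measured here), 361 were called, and 51 of these lay in 22 runs of at least 2 neighbours called the same way, 15 runs lower and 7 higher, while 9 neighbouring pairs were called in opposite directions. The longest run was 5 lysozyme genes, LysB, LysD, LysE, LysP and LysS, with log2 changes from -1.23 to -1.75, of which LysB, LysD and LysE were read by probe sets shared within the family and are not separate measurements. Runs of 3 were the proteases Jon25Biii, Jon25Bii and Jon25Bi, the trypsins alphaTry, epsilonTry and betaTry, the glue genes Sgs5bis and Sgs5 with CG7606, and Muc91C with CG14300 and CG34282. A pair that changed closely alike was Peritrophin-15a and Peritrophin-15b, which encode small chitin-binding proteins of the peritrophic matrix, at -1.40 ± 0.05 and -1.42 ± 0.09 (SE). Among the rises, PGRP-SB2 (log2 2.79) adjoins CG13026 (2.20) but for a gene that lies inside CG13026, and CG9701 (1.85) follows PGRP-SB2 after PGRP-SB1 and Dbp73D. PGRP-SB1 itself had a change of 0.68 and was not called (adjusted p = 0.31). In the L71 cluster Eig71Ee, which fell, lies between Eig71Ed and Eig71Ef, which rose.

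Some genes were at the floor throughout one stage, so that their changes are bounds on the floored scale. CG11865 had 174, 169 and 174 at 0 h, against 72.7, 75.9 and 64.6 at -4 h, and was at least 1.88-fold higher (adjusted p = 1.7e-10). It was under the floor again at 4 h, with 60.1, 59.3 and 47.3. CG9801 was at least 2.20-fold higher. CG15721, with 72.4, 72.7 and 67.4 at 0 h against 179, 195 and 190.2 at -4 h, was at least 2.05-fold lower (adjusted p = 1.1e-05). CG9040 was at least 3.92-fold lower, with 171 on control -4 h replicate 1 and 513 and 526 on the other larval arrays (adjusted p = 0.061). Of the 6 fits that left out a compared array, CG9040 was called in 1, that without control -4 h replicate 1 (adjusted p = 0.018), and over the 6 fits its adjusted p ran from 0.018 to 0.19.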
